A study of Populus trichocarpa with 378 samples.

Results

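RNA-seq read counts from the stem-differentiating xylem of Populus trichocarpa were searched for genes that fell in every library of the construct i15, which targets 2 4-coumarate:CoA ligase genes, 4CL3 and 4CL5, for knockdown. The members were selected on the i15 libraries and the wildtype libraries of the same planting batch. For each gene, the mean of the 3 wildtype libraries was subtracted from each of the 6 i15 libraries on the log2(CPM + 1) scale, where CPM is the read count relative to the TMM-scaled library total, and the 200 of 41334 genes whose least reduced i15 library was lowest were kept. These 9 libraries therefore describe the members and give no test of them. The least reduced i15 library was at −3.60 relative to wildtype for the first gene, with a median of −1.74 over the 200. The last 5 members inside the threshold had −1.514, −1.511, −1.510, −1.510 and −1.508, and the first 5 genes outside it had −1.507, −1.503, −1.501, −1.500 and −1.498, so the set has no natural edge.

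4-coumarate:CoA ligase joins hydroxycinnamic acids to coenzyme A and so commits carbon from the phenylpropanoid pathway to the monolignols, the alcohols that polymerise into lignin. In stem-differentiating xylem, the layer scraped from debarked stems, fibers and vessel cells thicken their secondary walls and lignify. Lowering the ligase is a standard way to reduce the lignin of wood. The gene identifiers in the count table are those of the version 3.0 gene models, and none of the 41334 could be paired with the 34621 genes of the reference annotation used here. The members are therefore given by identifier, without names, functions or sequences, and xylem markers were not looked up. Which identifiers belong to the targeted ligase genes was not determined, so their knockdown in the i15 trees was not checked as such. The targets may themselves be among the members, and a fall of such a member in i15, a12 or a13 would be that of the target.

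The series holds 378 libraries from 6 batches of trees, planted and harvested at different times in a greenhouse and 6 months old at harvest, with 3 wildtype libraries in each batch. The 360 transgenic libraries carry constructs that lower, or in a few cases raise, monolignol enzymes and transcription factors, which the labels of all samples describe as driven by a xylem-specific promoter of a 4-coumarate:CoA ligase gene. A library is one pool of 3 to 5 clonally propagated trees, and pools of one line share a single transformation event. The i15 group had 1 pool of line i15-1, 2 of line i15-2 and 3 of line i15-3. Batch 6 also held a12 (knockdown of 4CL3), a13 (4CL5), i21 (CCoAOMT3), i24 (CCoAOMT1 and CCoAOMT2), i30 (AldOMT2) and i53 (MYB002 and MYB021), 54 libraries in all. Batches 1 to 5 held 300 transgenic libraries of 38 constructs and 114 lines. Library totals were 7.02 to 25.7 M counts in batch 6 and 2.12 to 93.5 M in the other batches, and the 6 i15 libraries had 8.00 to 14.1 M (M, mega).

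Several libraries stood apart from the other pools of their own line or resembled other lines more, and the counts for a12, a13 and i26 are given with and without them. In batch 6, i21-8-2 correlated best with i15-3-2 over 24946 genes (r = 0.970) and less with the other pool of its line (r = 0.674). Library i21-6-1 correlated best with a13-6-1 (r = 0.970), against 0.792 to 0.815 for its own line. Libraries a12-10-2 and a12-10-3 resembled each other (r = 0.980) more than a12-10-1 (r = 0.865 and 0.881). In batch 4, a46-10-3 correlated best with i26-10-3 (r = 0.990), against 0.917 within its own line, and in batch 5, a18-11-1 correlated at 0.858 to 0.859 with its own line and at 0.949 with a wildtype library of batch 4. The i15 libraries were not all closest to their own lines, since i15-2-2 correlated at 0.961 with a12-10-2 and at 0.937 with the other pool of its line, and i15-3-2 at 0.970 with i21-8-2 and at 0.933 and 0.955 with its own. No 2 libraries were identical, and whether any label is exchanged was not tested.

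In the i15 trees the members were strongly reduced, with a residual transcript in most. Their mean wildtype level was 2.39 to 1137 CPM, with quartiles of 9.66, 17.6 and 37.7, and 19 members exceeded 100 CPM while 52 were below 10. Their median level in i15 was 1.85 CPM. As a percentage of wildtype, the i15 mean had a median of 9.51 (quartiles 6.92 and 13.1) and ran from 0.124 to 27.9. No member was at 0 counts in all 6 i15 libraries, and 48 were at 0 in at least 1. In a bulk sample, fewer cells of a type and less RNA per cell cannot be told apart.

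The 6 i15 libraries were not equally reduced. The median difference of the 200 members from wildtype, on the log2(CPM + 1) scale, was −2.43 in i15-1-1, −2.55 in i15-2-1, −1.79 in i15-2-2, −3.14 in i15-3-1, −3.49 in i15-3-2 and −2.79 in i15-3-3. The 3 pools of line i15-3 lay lowest, and i15-2-2 was the least reduced library for 159 of the 200 members, so that one pool, which was not closest to its own line, largely set which genes entered. The library i15-3-2 was the most reduced for 114. The median over all genes stayed between −0.07 and 0.02 in these libraries, which the scaling largely fixes, so a fall shared by all transcripts could not be seen. In the same libraries 4.95% to 25.3% of all genes were more than 1 below wildtype.

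The member with the lowest threshold value was Potri.005G107300. Its wildtype libraries had 18.03, 13.3 and 14.3 CPM, and the i15 libraries had 0.33 (i15-1-1), 0.12 (i15-2-1), 0.18 (i15-2-2), 0.16 (i15-3-1), 0.11 (i15-3-2) and 0.27 (i15-3-3). The groups were far apart, and all 6 pools were close to absence. Potri.004G019400 had 10.5, 16.9 and 9.37 CPM in wildtype and was at 0 counts in 5 of the 6 i15 libraries, with 0.09 CPM in i15-3-3. Potri.011G041300 had 15.0, 12.1 and 5.75 CPM in wildtype and 0.07, 0.12, 0, 0, 0 and 0.18 in the i15 libraries in the same order. These low-level members were nearly lost in every pool, including i15-2-2.

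Among abundant transcripts, Potri.001G036900 had the highest wildtype level of the set. It had 1291, 1089 and 1030 CPM in wildtype, and 93.1, 37.4, 85.3, 39.4, 11.5 and 56.7 CPM in i15-1-1, i15-2-1, i15-2-2, i15-3-1, i15-3-2 and i15-3-3. Potri.016G045500 had 353, 352 and 398 CPM in wildtype and 16.4, 16.4, 53.5, 2.53, 3.65 and 6.01 CPM in those pools. For both, the highest i15 library stayed far below the lowest wildtype library. Potri.001G106100 kept more of its transcript, with 729, 604 and 610 CPM in wildtype and 57.8, 79.2, 186, 64.2, 47.9 and 58.3 CPM in i15, the highest again in i15-2-2. Potri.001G320800 showed the spread between lines, with 293, 216 and 213 CPM in wildtype, 28.3, 29.5 and 76.7 CPM in i15-1-1, i15-2-1 and i15-2-2, and 2.04, 1.14 and 10.1 CPM in the 3 pools of i15-3.

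**Figure D1:**
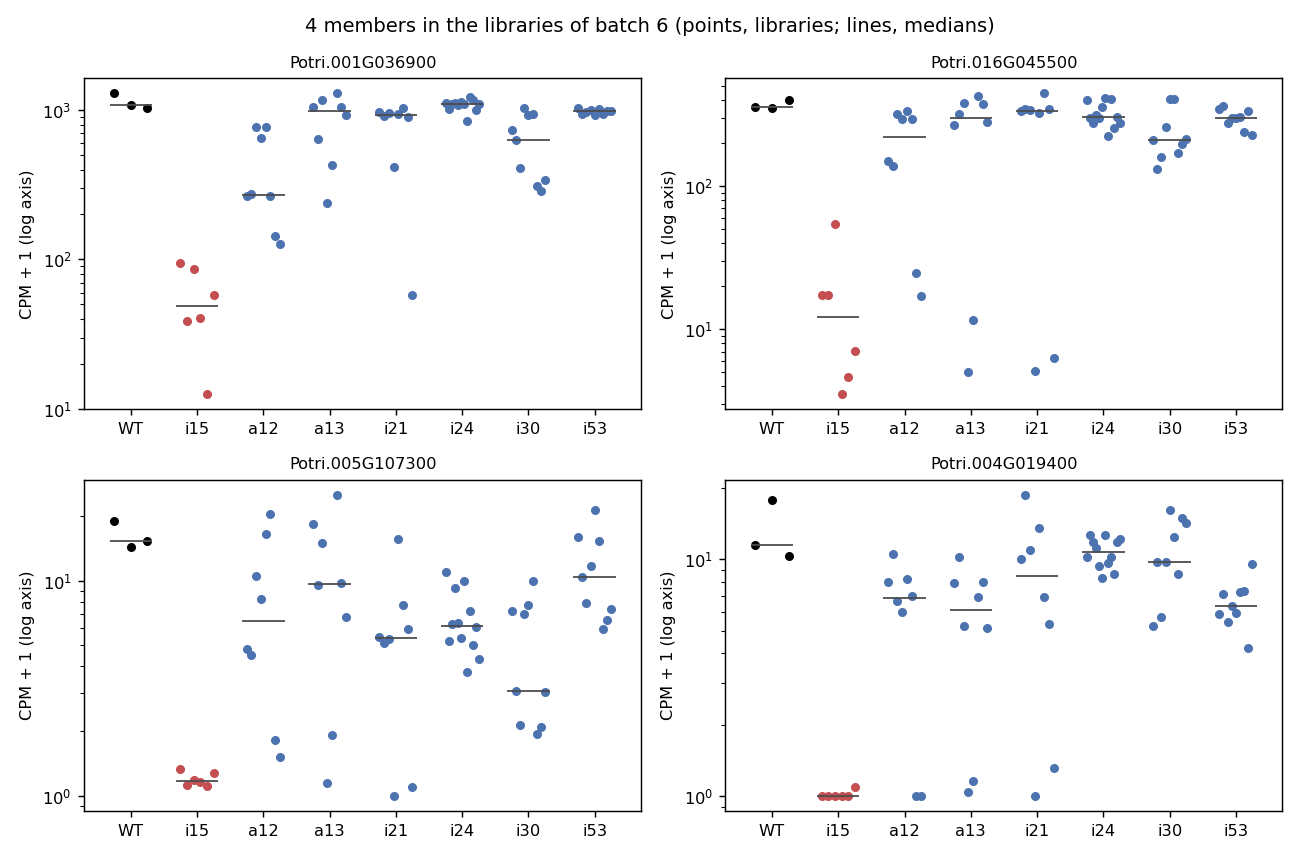
CPM + 1 on a log axis for 4 members in every library of batch 6, grouped by construct (black, wildtype; red, i15; blue, other constructs), with points for libraries and lines for medians. The 6 i15 libraries lie below the 3 wildtype libraries in each panel, and in Potri.016G045500 and Potri.004G019400 the same 2 libraries of a12, of a13 and of i21 fall to the i15 range while the others stay near wildtype.

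A few members entered although their wildtype libraries disagreed. For 5 members, all on chromosome 19, the highest i15 value reached the lowest wildtype value. Potri.019G122200 had 0.342, 12.5 and 20.1 CPM in wildtype and 0.53 to 1.37 CPM in i15, so that a single wildtype library was below all i15 libraries. Potri.019G122200, Potri.019G122300 and Potri.019G122400 had equal counts in 86.8% to 98.9% of the libraries, pair by pair, and may be near-identical copies between which reads cannot be divided, so that they carry the information of about 1 gene. In 14 members the wildtype coefficient of variation was above 50%.

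By their identifiers, which follow the order of genes along a chromosome except on unplaced scaffolds, members lay next to each other more often than other genes. An adjacent identifier belonged to another member for 21 of 200 members (10.5%), while 374 of the 41134 other genes (0.909%) had a member beside them. The adjacent members formed short runs, such as Potri.017G008100 with Potri.017G008200 and the 3 near-identical genes of chromosome 19. They included pairs on unplaced scaffolds, such as Potri.T004700 with Potri.T004800, whose true positions are not known here. Chromosome 1 held 27 members (0.570% of its genes), chromosome 10 held 20 (0.782%), and chromosomes 5 and 14 held 14 each (0.538% and 0.706%). On unplaced scaffolds there were 11 (0.604%). The lowest share was 0.0882%, on chromosome 8, and the counts partly follow the number of genes on each chromosome.

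The other constructs of batch 6 share the wildtype libraries that chose the members, so their differences from wildtype are given without a test. Of the 54 libraries, 47 had a median member difference above −1, and 7 did not. These 7 were i21-8-2 (−3.31), a13-6-1 (−2.87), i21-6-1 (−2.75), a13-6-2 (−2.49), a12-10-2 (−2.06), a12-10-3 (−2.28) and i30-1-3 (−1.07). The first 6 of them lay within the range of the i15 libraries, and 174 of the 200 members were more than 1 below wildtype in all 6. A high count follows from picking these libraries by the median of the same members. The same count over all genes was not made. The remaining pools of those lines did not share the reduction, with medians of −0.12 and −0.08 in i21-6-2 and i21-6-3, −0.18 in i21-8-1 and −0.15 in a12-10-1. Both pools of line a12-4 were intermediate, at −0.76 and −0.80. The other pools of line i30-1 were also intermediate, at −0.651 and −0.997, and those of line i30-15 ran from −0.696 to −0.499. By their labels, the first 6 low pools belonged to constructs aimed at CCoAOMT3 and at one ligase gene. The pool i30-1-3 belonged to the construct aimed at AldOMT2.

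**Figure D2:**
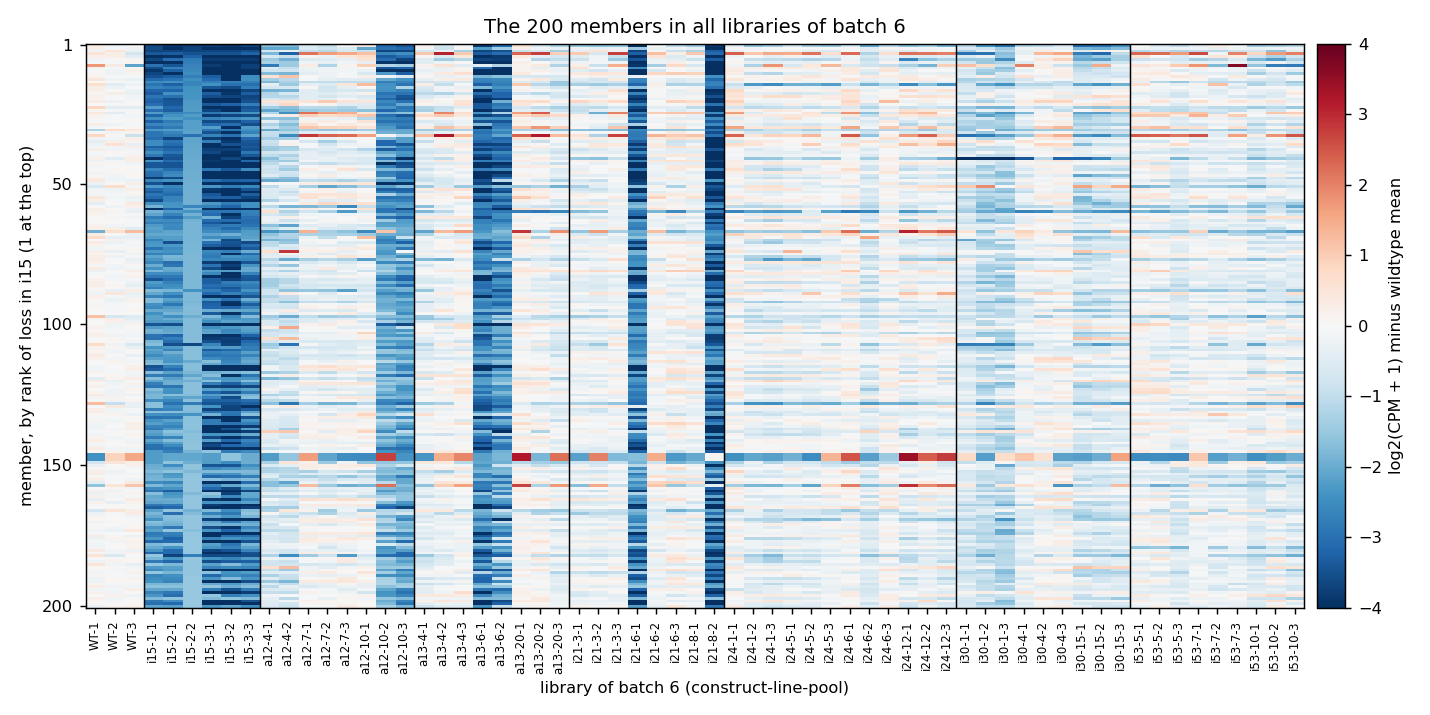
Difference of log2(CPM + 1) from the wildtype mean for the 200 members (vertical axis, in order of their loss in i15) in each library of batch 6 (horizontal axis, construct, line and pool), from blue for lower to red for higher. Besides the 6 i15 columns that chose the members, a12-10-2, a12-10-3, a13-6-1, a13-6-2, i21-6-1 and i21-8-2 are blue over nearly the whole set.

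Potri.016G045500 shows this in single libraries. It had 23.8 and 16.1 CPM in a12-10-2 and a12-10-3 against 291 in a12-10-1, 4.06 and 10.6 CPM in a13-6-1 and a13-6-2, 4.11 CPM in i21-6-1 against 325 and 442 in the other pools of its line, and 5.29 CPM in i21-8-2 against 346 in i21-8-1. The low values lay far below those of the other pools labelled as the same line.

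To ask whether either single ligase knockdown lowered the members without using the wildtype libraries of batch 6, a12 and a13 were each compared with i21, i24, i30 and i53 together, by edgeR's quasi-likelihood test with Benjamini-Hochberg adjustment over 27551 genes. In a12, 11 of 200 members were lower (5.5%) and 0 higher, and 6.04% of all genes were lower and 8.93% higher, so with all libraries kept members were called no more often than genes in general. At an unadjusted p under 0.05 there were 24 lower and 3 higher, and DESeq2 also called 0 higher. In a13, 1 member was lower and 0 higher, where 0.541% of all genes were lower and 2.37% higher, and 6 members had an unadjusted p under 0.05 (5 lower and 1 higher). The a12 count rested on the libraries that stood apart. Without i21-6-1 and i21-8-2 in the reference it was 38 (19%, against 10.1% of all genes). Both libraries were low in the members, so leaving them out raises the reference while the low pools of a12-10 stay. Nothing about the members is concluded from that rise. Without all 6 low libraries the a12 count was 36 (18%, against 10.6%), with 16 higher against 11.5% of all genes. Without line a12-10 it was 1, against 3.38% of all genes. The a13 count became 7 without the 2 i21 libraries (3.15% of all genes lower), 3 with 4 higher without all 6 (0.671% of all genes lower and 0.788% higher), and 0 without line a13-6 (0.0757% of all genes lower, and 3 members lower at an unadjusted p under 0.05).

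Potri.001G036900 was the most abundant of the members lower in a12, and whether it is the gene that a12 targets was not checked. It had 266.9 and 273 CPM in the 2 pools of a12-4, 771, 645 and 773 CPM in line a12-7, and 265.1, 143 and 126.6 CPM in line a12-10. Against the 4 other constructs its log2 fold change was −1.05 (SE 0.29, adjusted p = 0.00936, edgeR), −0.63 without line a12-10 (adjusted p = 0.279) and −0.84 without the 6 low libraries (adjusted p = 0.00181). In a13 it was 0.00 (adjusted p = 0.997). Potri.009G118800 was the sole member lower in both, with a log2 fold change of −1.22 in a12 (SE 0.32, adjusted p = 0.00629) and −1.32 in a13 (SE 0.33, adjusted p = 0.0129). It was also one of the members that moved least with the others across libraries, and 4 constructs of batches 1 to 5 had it higher.

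In batches 1 to 5, the comparison of each construct was with wildtype trees planted alongside it, 3 libraries a batch, which had no part in choosing the members. Over the 38 constructs, 243 of 7568 pairs of a member and a construct were lower (3.21%, against 1.8% of all gene and construct pairs) and 95 were higher (1.26%, against 2.02%), by edgeR's test. The lower pairs numbered 83 with the pools of a line summed and 121 to 136 without any one wildtype replicate number. They were concentrated, with i35 (CAD1 and CAD2), a43 (MYB167) and i20 (C3H3) holding 158 of them. In these constructs 30%, 28.5% and 20.5% of members were lower, against 17.3%, 7.51% and 5.53% of all genes. The same constructs thus called many other genes lower too. At least 1 member was lower in 21 constructs and none in 17. Of the 200 members, 130 were lower in at least 1 construct and 7 in at least 5, while 36 were higher in at least 1 and 10 in at least 5. These numbers of constructs and members were not set against the same numbers for all genes. All constructs of one batch share their 3 wildtype libraries, so these counts are not independent of each other.

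The constructs aimed at several genes of the pathway differed widely. In i8, which targets PAL1 to PAL5, the ammonia-lyases at the entry of the pathway, 1 member was lower (2.16% of all genes were) and 12 were higher (3.68% of all genes were). The i8 libraries had 13.4 to 45.96 M counts against 4.57 to 9.08 M in their wildtype, and the part of depth was not tested. In i69, against C3H3, C4H1 and C4H2, the hydroxylases, 2 were lower and 3 higher, with 3.75% of all genes lower and 2.54% higher. In i20, against C3H3 alone, 41 were lower and 6 higher, with 5.53% of all genes lower and 6.73% higher, and 0 were lower with the pools of a line summed. In i29, against CAld5H1 and CAld5H2, which lead to syringyl lignin, 5 were lower (0.783% of all genes) and 0 higher (0.0786% of all genes), and at an unadjusted p under 0.05 these were 22 and 1, with 0 higher also by DESeq2. In i35, against the alcohol dehydrogenases CAD1 and CAD2 of the last step, 60 were lower and 8 higher, with 17.3% of all genes lower and 18.6% higher. The higher counts in i69, i20 and i35 were thus below the share of all genes. Without any one wildtype library the i20 count was 5 to 16 and the i35 count 35 to 46.

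In the double knockdown of HCT1 and HCT6 and the knockdown of CCR2, all enzymes that use the ligase's product, no member was called. In i19, against the hydroxycinnamoyl transferases HCT1 and HCT6, 0 members were lower and 0 higher by edgeR's test, with 0.334% of all genes lower and 0.0885% higher, 38 lower and 3 higher at an unadjusted p under 0.05, and 3 lower and 0 higher by DESeq2. In i26, against CCR2, the cinnamoyl-CoA reductase, 0 of 199 members were lower and 0 higher, with 0.0158% of all genes lower and 0.00316% higher, 22 lower and 0 higher at an unadjusted p under 0.05, and 0 by DESeq2, and it had 0 lower and 0 higher also without i26-10-3 and a46-10-3. The single knockdown of HCT1, a17, had 4 members lower and 1 higher, with 2.44% of all genes lower and 1.3% higher. The absence of calls in i19 stood beside one line in which most of the set fell. Tested by line, i26-4, i26-10 and i26-9 had median member log2 fold changes of −1.04, −0.80 and 0.16. In these lines 2, 1 and 0 members were lower, with 0.264%, 0.0529% and 0.0467% of all genes lower. At an unadjusted p under 0.05, by edgeR's test, 89, 48 and 6 members were lower.

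**Figure D3:**
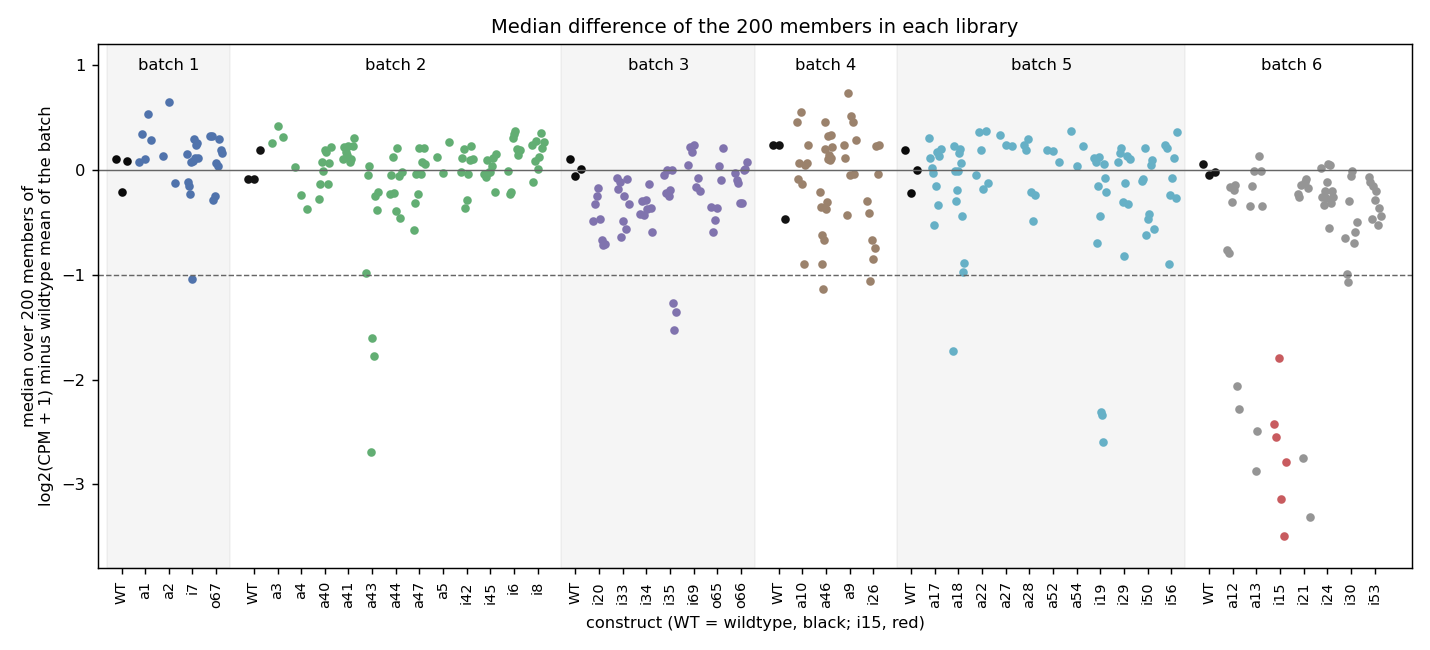
Median difference of the 200 members from the wildtype mean of the batch, in log2(CPM + 1), for each of the 378 libraries by construct and batch (black, wildtype; red, i15; dashed line, −1). Most libraries lie within 1 of wildtype, and the low points outside batch 6 come mainly from a43 and i35 and from i19, whose line i19-7 has −2.31, −2.34 and −2.60.

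Large reductions were found in a few lines and pools. Of the 300 transgenic libraries of batches 1 to 5, 13 had a median member difference under −1, and 144 were above 0. The 3 pools of i19-7 had −2.31, −2.34 and −2.60, those of a43-13 had −2.69, −1.61 and −1.78, and those of i35-7 had −1.27, −1.53 and −1.36, so all pools of each line were low. The other 4 were single pools, a18-11-1 (−1.73), a46-10-3 (−1.13), i26-10-3 (−1.06) and i7-2-3 (−1.04). The a43-13 libraries had 2.12, 2.86 and 11.3 M counts, the first 2 below the wildtype libraries of their batch, and those of i35-7 were deep, at 45.6 to 57.5 M counts. In a43-13-1, 20.1% of counts fell in 10 genes, 60 members were at 0 counts, and the median over all genes was −0.21. The part of depth and library quality in the a43-13 values was not tested, and the deepest of the 3 lay between the others. Of the members, 81 were more than 1 below wildtype in all 9 libraries of the 3 lines, and 7 were in none of the 9. These libraries were singled out by their member medians, and all genes were not counted in the same way.

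Each of the 114 lines was then tested against its wildtype by edgeR's test. In i19-7, 164 of 200 members (82%) were lower and 6 higher, with a median log2 fold change of −3.21 over the members, and 29.7% of all genes were lower and 29.5% higher. Of the other lines of i19, i19-4 and i19-15 had 0 members lower (0.0192% and 0.00320% of all genes). Line i19-8 had 2 (1%, against 0.0897% of all genes). Lines i35-7, a43-13 and i20-5 were picked out after their values were seen. In i35-7, 163 members were lower (30.1% of all genes) with a median of −1.67. Line i35-15 had 59 members lower (29.5%, against 16.7% of all genes). Line i35-1 had 27 (13.5%, against 13.0%), near the share of all genes. In a43-13, 157 were lower (28% of all genes) with a median of −2.43, against 5 and 4 in lines a43-12 and a43-17. In i20-5, 129 were lower (19.5% of all genes) with a median of −0.85, with 66 lower in i20-10 (9.66% of all genes) and 20 in i20-2 (1.66% of all genes). The percentage of members called lower was above that of all genes in 67 of the 114 lines. In i19-7, i35-7, a43-13 and i20-5 it was far above, and the share of all genes was itself large. Among the remaining lines, 8 had 50 to 99 members lower, 19 had 10 to 49, 51 had 1 to 9 and 32 had none. Of these, 15 lines had a single library, taken to vary like the other groups in the fit, and 6 of the 15 had 1 to 9 members lower and 9 had none.

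**Figure D4:**
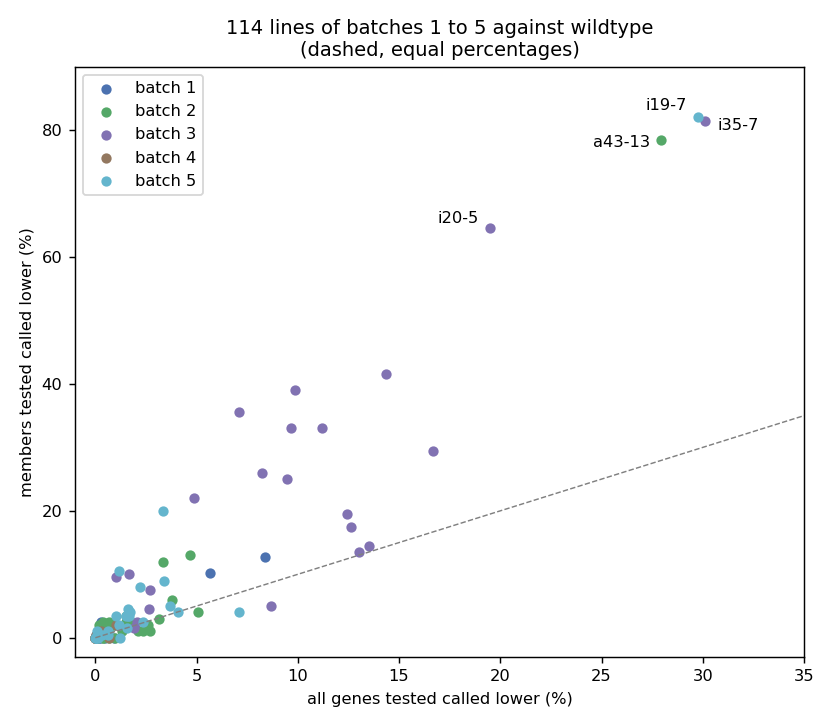
Percentage of members called lower (vertical axis) against the percentage of all tested genes called lower (horizontal axis) in each of the 114 lines of batches 1 to 5, coloured by batch, with equal percentages on the dashed line. Lines i19-7, i35-7 and a43-13 lie together at about 80% of members and 30% of genes, i20-5 has 64.5% and 19.5%, and most lines are near the origin.

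Potri.001G036900 illustrates the 3 lines. In i19-7 it had 98.9, 63.8 and 68.2 CPM against 1404, 715 and 1492 CPM in wildtype of batch 5, a log2 fold change of −3.98 (SE 0.35, adjusted p = 3.88e-15). In i35-7 it had 199, 128 and 152 CPM against 955, 1208 and 1651 CPM in wildtype of batch 3, a change of −3.02 (SE 0.17, adjusted p = 1.92e-16). In a43-13 it had 114, 460.0 and 509 CPM against 1428, 1494 and 1861 CPM, a change of −2.11 (SE 0.25, adjusted p = 7.32e-11). The 9 low-line libraries were below every wildtype library of their batches, and the i19-7 levels were in the range of i15. In the lines i19-4 and i19-15 it ran from 872 to 1380 CPM, within the range of wildtype.

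Potri.016G045500 and Potri.001G320800 moved in the same lines. Potri.016G045500 had 7.51, 3.76 and 4.08 CPM in i19-7 against 211, 155 and 162 CPM in wildtype (log2 fold change −5.11, SE 0.61, adjusted p = 1.67e-10), 3.51, 10.4 and 2.72 CPM in a43-13 against 209, 176 and 303 CPM (−5.48, SE 0.54, adjusted p = 4.31e-13), and 48.3, 40.9 and 43.6 CPM in i35-7 against 209, 149.7 and 188 CPM (−2.07, SE 0.21, adjusted p = 7.93e-11). Potri.001G320800 had 5.67, 1.39 and 2.75 CPM in i19-7 against 420, 183 and 414 CPM in wildtype, a change of −6.69 (SE 0.49, adjusted p = 6.79e-18). Both members fell further in i19-7 and a43-13 than in i35-7.

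The members called lower overlapped between the 3 lines. Lines i19-7 and a43-13 shared 134 (81.7% of the first list and 85.4% of the second), i19-7 and i35-7 shared 147 (89.6% and 90.2%), and a43-13 and i35-7 shared 141 (89.8% and 86.5%), with 126 in all 3. Lists that each hold about 80% of the same 200 genes must overlap widely. The 12 members lower in none of the 3 lines included Potri.018G089400, which was higher in i19-7 (log2 fold change 5.97), Potri.016G048000 and Potri.009G118800, both higher in i35-7 (5.32 and 2.71), and the 3 near-identical genes of chromosome 19.

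Members also varied together in libraries that took no part in their choice. Over the 300 transgenic libraries of batches 1 to 5, the correlation of a member's difference from wildtype with the median of the other members had a median of 0.646, and 142 members (71%) were above 0.5. For 23364 other genes the median was 0.03, with 19.4% above 0.5. In the 287 libraries without the 13 low ones the median was 0.510 and 51.5% of members were above 0.5, against 0.02 and 9.70% for the other genes. Over the 54 libraries of batch 6 outside i15 the median was 0.901 with 94.5% of members above 0.5, against −0.04 and 30.5% for 24951 other genes. These 54 include the 7 libraries under −1, and the value without those 7 was not computed. The batch 6 differences also use the wildtype libraries that chose the members. These correlations describe libraries that share wildtype means, lines and scaling, and no p is given.

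A smaller group of members was high in several constructs. Potri.002G189100, Potri.019G121500, Potri.019G122200, Potri.019G122300, Potri.019G122400, Potri.019G122600, Potri.014G080400, Potri.017G008100, Potri.017G008200 and Potri.011G016000 were each higher in at least 5 constructs. The knockdowns of ammonia-lyases in batch 2 (a3, a4, a5, i6 and i8) held 50 of the 95 higher pairs. In each of them 4% to 6% of members were higher, against 2.67% to 3.81% of all genes. Their libraries were deeper, at 13.4 to 45.96 M counts, than wildtype of batch 2, at 4.57 to 9.08 M. The other constructs of that batch had 2.12 to 15.4 M. The part of depth in these rises was not tested. The 5 members of chromosome 19 were also lower in o66, 4 of them (all but Potri.019G122200) in i35, and Potri.011G016000 was lower in a43. Potri.002G189100 had 2.88, 10.1 and 2.38 CPM in wildtype of batch 2 and 116 to 1148 CPM in i8, with no overlap and a log2 fold change of 6.85 (SE 0.94, adjusted p = 3.1e-08, edgeR). In wildtype of batch 3 it had 379, 569 and 302 CPM, in wildtype of batch 5 it had 734, 525 and 1066 CPM, and in wildtype of batch 6 59.8, 22.6 and 3.29 CPM, so the wildtype trees of the batches differed as much as i8 did from its own. In i19-7 it fell to 16.9, 4.57 and 3.27 CPM while the other 9 libraries of i19 had 611 to 1076 CPM.

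Potri.019G122200 followed the same pattern. It had 0 to 4.29 CPM in wildtype of batch 2, 133 to 580 CPM in the ammonia-lyase knockdowns of that batch and 0 to 37 CPM in its other constructs. Its wildtype levels were 0 to 0.30 CPM in batch 1, 86.7 to 143 CPM in batch 3, 133 to 148 CPM in batch 4, 65.6 to 447 CPM in batch 5 and 0.34 to 20.1 CPM in batch 6. In i8 the log2 fold change was 7.81 (SE 1.48, adjusted p = 6.31e-05), against wildtype libraries near 0 and therefore uncertain in size. The levels of the 5 knockdown constructs lay with wildtype of batches 3 to 5, and whether these trees differed in planting or handling from the other trees of batch 2 was not tested.

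**Figure D5:**
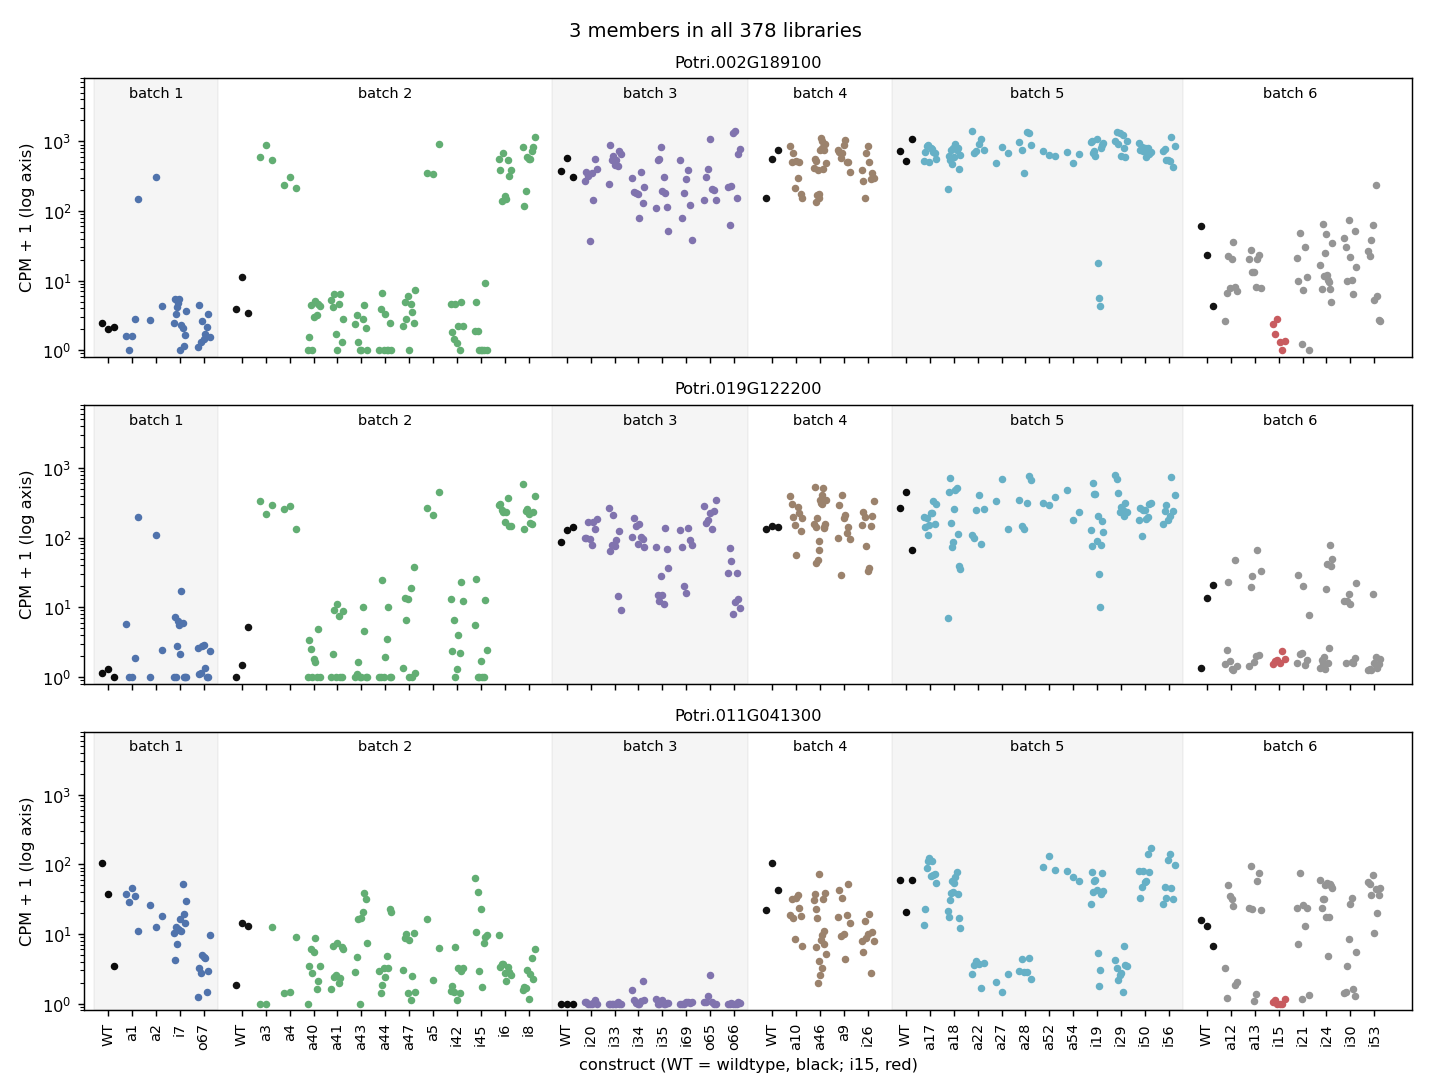
CPM + 1 on a log axis for 3 members in all 378 libraries by construct and batch (black, wildtype; red, i15). Potri.002G189100 and Potri.019G122200 are high in a3, a4, a5, i6 and i8 of batch 2 and in batches 3 to 5, and low in the rest of batches 1 and 2, while Potri.011G041300 is at or near 0 throughout batch 3 and low in a22, a27, a28 and i29 of batch 5.

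Potri.011G041300, Potri.016G048000, Potri.006G137300 and Potri.014G162000 were lower in o67 (CAD2 overexpression, batch 1) and in a22 (CCoAOMT1), a27 (CAld5H1), a28 (CAld5H2) and i29 of batch 5. Potri.014G162000 was also lower in i35 and higher in a47, and Potri.016G048000 was higher in o65. Potri.011G041300 had 19.8 to 59.5 CPM in wildtype of batch 5, 0.65 to 3.15 CPM in a22, 0.45 to 1.64 CPM in a27, 1.29 to 3.51 CPM in a28 and 0.47 to 5.70 CPM in i29, with no overlap, whereas a17 (HCT1) of the same batch had 12.6 to 122 CPM. Its log2 fold change was −5.38 in a27 (SE 0.94, adjusted p = 0.000281) and −4.28 in i29 (SE 0.59, adjusted p = 1.34e-06). All 3 wildtype libraries of batch 3 were at 0, so no fall could be seen there.

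Potri.006G015000, an abundant transcript, was among the members lower in the largest number of constructs, with calls in batches 2 and 3. It had 117, 103 and 190 CPM in wildtype of batch 2 and a median of 66.04 CPM over the 9 a43 libraries (2.92 to 84.03), with a log2 fold change of −1.40 (SE 0.27, adjusted p = 0.000721). In wildtype of batch 3 it had 101, 164 and 196 CPM, in i35 a median of 57.0 CPM (12.6 to 87.1; −1.69, SE 0.32, adjusted p = 7.86e-05) and in o66, which lowers CAD1 and raises CAD2, a median of 54.5 CPM (43.8 to 58.6; −1.55, SE 0.33, adjusted p = 0.000665). None of these libraries exceeded the lowest wildtype library, and it was also lower in i20 and o65. Potri.010G079500 moved in opposite directions, lower in a3, a5, i45, i6 and i8 of batch 2 and higher in i35 and o66 of batch 3.

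Wildtype trees of different batches also differed in these genes. The median member level was 10.4, 17.9, 16.3, 9.16, 15.8 and 17.6 CPM in batches 1 to 6, and relative to batch 6, which chose the members and where a high wildtype level favoured entry, the median log2 difference was −1.08, −0.14, −0.45, −1.25 and −0.46 in batches 1 to 5. The median over all genes was within −0.04 and 0.00. Among the wildtype libraries of batches 1 to 5 alone, 151 of the 200 members differed between batches by edgeR's test, against 38.3% of all genes tested. The count was 62 to 111 without any one replicate number, and the share of all genes in those fits is not given here. In batch 4 the wildtype libraries themselves spread from −0.47 to 0.24 around their mean in the member median.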

How the data were processed

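RNA was extracted from scraped stem-differentiating xylem and sequenced as Illumina libraries. The counts are raw read counts per gene, which the authors made by aligning reads to the Populus trichocarpa version 3.0 genome with TopHat, and deposited in one table of 378 columns without normalization. All columns matched labelled samples, except that one a12 column differed from its title in the pool number and was used by its group. How reads with several alignments were counted is not given in the sources used here.

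Counts were scaled by TMM over all libraries to give CPM, and a value of 1 was added before log2. Groups followed the labels. Within each batch, all constructs and wildtype were fitted together with edgeR 4.0.16 in R 4.3.3 (quasi-likelihood F-test, filterByExpr, Benjamini-Hochberg adjustment over all genes tested, threshold 0.05), and DESeq2 1.42.0 was an alternative. The procedure was tested on simulated data. Pools of a line are clonal, so p-values treat them as more independent than they are, and an alternative summed them. The pools of wildtype are likewise separate samples of one genotype.

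The members and lists were chosen with earlier results of these data known. Named members are the 10 lowest by the threshold value, the 10 highest in wildtype, the 10 lower and the 5 higher in the largest number of constructs, the 5 most significant in a12 and a13, and the 5 genes on each side of the threshold, of which the text gives a part. Other members in the text, among them adjacent genes, those lower in none of the 3 lines, and Potri.010G079500, were singled out after their values were seen. Gene lists by product name and marker lists could not be applied, since no identifier was annotated. The fits without single lines or libraries that stood apart were added after the data were seen.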

Additional observations from a re-analysis of the deposited data

Results flagged for a closer look

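The median difference of the 200 members from wildtype in the knockdown of C4H1 in batch 4 (a10) had one library far from the others. The library a10-14-3 was at −0.90 on the log2(CPM + 1) scale, while the next of the 9 libraries was at −0.14 and the highest at 0.55, so that this gap took 0.524 of the whole range. Groups of 4 to 10 libraries were examined in this way for 33 constructs, where chance gives about 1.65 such gaps, and 1 was found.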

How the results depend on the processing

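Of 215 alternative values of 24 counts, 166 stayed within 1.5 times the reported count. With the pools of a line summed, the lower members numbered 0 in i69, 0 in i20, 2 in i29, 34 in i35, 1 in a12 and 0 in a13, the higher ones 0 in i69 and 0 in i20, and the lower pairs of batches 1 to 5 fell from 243 to 83. This alternative has fewer samples. Leaving out one wildtype replicate gave 1 to 2 lower and 7 to 11 higher in i8, 0 to 1 lower and 0 to 5 higher in i69, 5 to 16 lower and 0 to 6 higher in i20, 0 to 1 lower in i19, 35 to 46 lower in i35, 121 to 136 lower pairs, and 62 to 111 members differing between wildtype batches. Leaving out one line gave 1 to 15 lower and 0 to 1 higher in a12, and 0 to 3 lower in a13. Without lines a43-13, i35-7 and i19-7, added after the data were seen, 36 members were lower in i35. Without a46-10-3, i26-10-3 and a18-11-1, also added, the lower pairs numbered 243, and i26 and i19 had 0 lower. Without a filter on low counts 1 was lower in i69 and 2 in a13. DESeq2 gave 3 lower in i19 and 4 in a13. Without i53 in the reference, 2 were higher in a12 and 2 lower in a13. Without the 6 low libraries of batch 6, 36 were lower and 16 higher in a12, and 3 lower and 4 higher in a13. Without i21-6-1 and i21-8-2, 38 were lower in a12 and 7 in a13. The cause of these shifts was not tested. With a pseudocount of 5 in place of 1, 118 of the 200 members would have been chosen and 7 libraries of batches 1 to 5 lay under −1 in place of 13.

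The pool numbers did not pair the samples, since deviations of same-numbered pools from their group means correlated at −0.30 to 0.20 over 21 pairs, 3 of them over 0.1. With the replicate number as a block, 61 members were lower in i35, 42 in i20, 167 in line i19-7 and 8 in a12, 241 pairs were lower, and 142 members differed between wildtype batches, each within 1.5 times the count without it. Members below 10 CPM rest on few counts in the shallowest libraries, where their differences carry a large counting error.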
